A study of Mus musculus with 48 samples.

Results

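Methylated DNA captured from the amygdala was compared between 7 late and 17 early numbered libraries of unstressed control (C) mice. The members were chosen by the number that ends each library's label. The 7 late libraries run from the label G5_272 to G1_295, the 17 early libraries carry numbers from 16 to 76, and together they are all 24 C libraries among the 48 of the series. All 24 came from 4-month-old male mice on a C57BL/6 background that were not separated from their mothers. They differed by Tph2 genotype. Tph2 encodes the enzyme that limits serotonin synthesis in the brain, and the mice were wildtype (Tph2+/+), heterozygous (Tph2+/-) or homozygous null (Tph2-/-) offspring of heterozygous parents backcrossed to C57BL/6N. The early libraries were 6 Tph2+/+, 6 Tph2+/- and 5 Tph2-/-, and the late libraries 2, 2 and 3. Each library was a separate animal. The other 24 libraries came from maternally separated (MS) mice, taken from the mother for 3 h a day from day 2 to day 15 after birth, and their numbers lie between those of the early and the late libraries (G6_103 to G2_263).

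The labels do not say what the number stands for. A second number, written with an S, orders the libraries the same way, from 1 to 17 in the early and from 42 to 48 in the late libraries. No source used here names a cohort, a litter, a dissection day, a capture batch or a sequencing run for a number, so these cannot be told apart. Which libraries came from littermates is not given either, and every test treats the libraries as independent. The comparison asks what changes in captured methylation with the number, and with whatever goes with it, when rearing is the same and genotype is in the model. The amygdala was powdered whole before DNA was taken, so each value is a mean over neurons, glia and vessel cells.

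In MBD-seq, a methyl-CpG-binding domain protein pulls down fragments of DNA that carry methylated CpGs, and the fragments are sequenced. More methylated CpGs on a fragment mean stronger binding, so the yield of a locus depends on its methylation, on how many CpGs it holds and on how the capture and wash were done. Most of the mammalian genome is poor in CpG and methylated, while CpG-dense stretches at gene starts are mostly unmethylated in brain. Dense stretches that are methylated include promoters of germline genes and the silent copy of imprinted genes. Tandem arrays, in which 1 short unit is repeated head to tail, and recently duplicated genes are places where a short read may fit several positions and where the number of copies can differ between animals.

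The sequences below show the kinds of loci that differed most. The first 3 are 240-base stretches of the plus strand (GRCm38) from loci lower in the late libraries, with every CG in capitals, so that their density of CpGs can be seen. The stretch at Cdkn1c is chr7:143461158-143461397 and holds 38 CGs. That at Hsf5 is chr11:87617032-87617271 with 34. The third, from a Y chromosome locus with Mid1-ps1 as its nearest gene, is chrY:90730913-90731152 with 13.
Cdkn1c: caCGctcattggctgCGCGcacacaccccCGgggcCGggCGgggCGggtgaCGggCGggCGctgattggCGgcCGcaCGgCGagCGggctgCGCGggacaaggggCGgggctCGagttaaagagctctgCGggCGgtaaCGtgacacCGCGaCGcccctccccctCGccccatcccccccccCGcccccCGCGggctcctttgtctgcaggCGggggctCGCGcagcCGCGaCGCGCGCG
Hsf5: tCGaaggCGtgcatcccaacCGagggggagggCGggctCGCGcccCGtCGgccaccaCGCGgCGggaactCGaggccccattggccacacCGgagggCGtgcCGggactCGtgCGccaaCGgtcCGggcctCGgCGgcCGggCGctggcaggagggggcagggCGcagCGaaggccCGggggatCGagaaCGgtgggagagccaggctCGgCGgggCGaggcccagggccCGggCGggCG
Mid1-ps1: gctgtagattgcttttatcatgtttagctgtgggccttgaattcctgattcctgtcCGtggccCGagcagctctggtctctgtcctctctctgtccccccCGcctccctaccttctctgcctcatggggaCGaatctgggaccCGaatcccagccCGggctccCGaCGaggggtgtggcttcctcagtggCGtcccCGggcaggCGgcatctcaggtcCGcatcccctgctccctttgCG

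Next are 2 stretches of the same length from duplicated loci that were higher in the late libraries, again with CG in capitals. The stretch at the pseudogene Obox4-ps28 is chr7:15443873-15444112 and that at Snord116l2 is chr7:59876246-59876485, and each holds 7 CGs.
Obox4-ps28: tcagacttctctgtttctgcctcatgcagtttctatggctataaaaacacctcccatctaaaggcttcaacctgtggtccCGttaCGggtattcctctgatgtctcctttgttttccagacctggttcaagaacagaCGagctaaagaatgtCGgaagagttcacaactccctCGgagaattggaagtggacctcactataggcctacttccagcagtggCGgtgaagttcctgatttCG
Snord116l2: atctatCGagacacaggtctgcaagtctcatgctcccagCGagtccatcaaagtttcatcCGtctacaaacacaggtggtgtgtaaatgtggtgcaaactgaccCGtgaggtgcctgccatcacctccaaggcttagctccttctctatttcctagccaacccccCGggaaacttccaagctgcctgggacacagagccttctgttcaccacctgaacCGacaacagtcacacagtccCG

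The last 3 are stretches of tandem arrays that were higher in the late libraries, each 4 unbroken units long, with the first unit in capitals. They lie beside Gm3318 at chr10:3111483-3111558 with a unit of 19 bases, in an intron of Map6 at chr7:99297485-99297596 with 28 bases, and in an intron of Cdh18 at chr15:22799632-22799851 with 55 bases. The stretches beside Gm3318 and in Map6 hold no CG, and that in Cdh18 holds 1 CG per unit.
Gm3318: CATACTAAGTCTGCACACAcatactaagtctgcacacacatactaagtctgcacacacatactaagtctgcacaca
Map6: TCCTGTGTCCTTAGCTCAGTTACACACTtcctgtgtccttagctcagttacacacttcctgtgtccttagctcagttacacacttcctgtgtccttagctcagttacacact
Cdh18: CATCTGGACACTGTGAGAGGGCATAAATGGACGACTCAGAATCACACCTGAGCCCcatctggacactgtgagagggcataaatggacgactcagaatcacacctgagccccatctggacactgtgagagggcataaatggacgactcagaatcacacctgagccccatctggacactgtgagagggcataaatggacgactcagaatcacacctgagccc

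The deposited table gives read counts for 187695 methylated loci, merged peaks of 331 to 53998 bases with a median width of 916 bases. The 24 C libraries held 7724481 to 13445956 counts, and the median locus had a mean of 27.5 counts per library. Genotype labels were checked at 28 loci of chromosome 10 between 118226899 and 118354448, near Tph2, that follow the genotype. Their summed level in TMM-normalised CPM, counts scaled to a common library size, was 72.82 ± 3.32 (SD, n = 5) in early and 79.57 ± 10.8 (n = 3) in late Tph2-/- libraries, against 139.1 ± 13 (n = 6) and 141.3 ± 5.07 (n = 2) in Tph2+/+. In Tph2+/- it was 108.6 ± 7.41 (n = 6) in early and 117.6 ± 18.3 (n = 2) in late libraries. Late Tph2-/- libraries, at 69.92 to 91.17 CPM, lay below all libraries of the other genotypes, while Tph2+/- and Tph2+/+ libraries overlapped there. Tph2 itself held 15 loci, none of which was called (log2 change -0.54 to 0.39, late minus early). The locus with the most counts, a block of satellite-like repeats over Gm10715 at the start of chromosome 9, took 17.4 to 23.1% of the counts of an early and 17.8 to 25% of a late library and was not called (log2 change 0.01, edgeR adjusted p = 0.986), although limma called it higher by 0.15.

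Few loci differed after adjustment. With genotype in the model, 127 loci were higher and 187 were lower in the late libraries (edgeR quasi-likelihood test, Benjamini-Hochberg adjusted p under 0.05). These are 0.0677% and 0.0996% of all loci tested, 0.167% together. With the limits of the study's own methods, an unadjusted p under 0.01 and a log2 change beyond 0.2, 2714 loci were higher and 3458 lower, 1.45% and 1.84% of all loci. If no locus differed, 1877 would have a p under 0.01. The sizes were moderate. The called loci differed by 0.41 to 1.32 on the log2 scale where higher and by 0.35 to 1.35 where lower, with medians of 0.656 and -0.558, while the median standard error over all loci was 0.185. The number of calls moved with single libraries, from 73 without the late Tph2+/- replicate 7 to 802 without the early Tph2-/- replicate 3. Complete separation of the groups was rare, since all 7 late libraries lay above all 17 early libraries at 5 loci (0.00266% of those tested) and below all of them at 5 others (0.00266%).

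The loci called in the 2 directions were of different kinds. Those lower in the late libraries were dense in CpG, with a median of 3.35 CpGs per 100 bases against 1.82 over all loci. Those higher in the late libraries were not, at 1.66 CpGs per 100 bases, but were repetitive. A median of 84% of their bases was repeat-masked against 36.2% in the lower loci and 23.2% over all. Masked loci as a class went both ways. Of loci with 50 to 90% of bases masked, 31 were called higher (0.0916%) and 57 lower (0.168%). Of those with over 90% masked it was 53 (0.365%) and 22 (0.152%). Near-identical copies elsewhere in the genome (at least 95% identity over 80% of the locus) were found for 11 of the 127 higher loci (8.66%), for 1 of the 187 lower loci (0.535%) and for 0.718% of all loci. Tandem arrays made up 31 of the 127 (24.4%), 1 of the 187 and 0.469% of all loci. The median width was alike, 1399 and 1385 bases.

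CpG-rich loci (GC content of at least 50% and a ratio of observed to expected CpG of at least 0.6) were lower in the late libraries. Of 489 such loci, 39 were called lower (7.98%) and 0 higher. With the study's limits 37% were lower and again 0 higher. Their median log2 change was -0.295 against 0.001 over all loci, with 454 of the 489 below 0, and it was negative in each genotype, at -0.38 in Tph2+/+, -0.301 in Tph2+/- and -0.245 in Tph2-/-. The position of the locus made little difference to the direction, with 24 of 244 CpG-rich loci at transcription start sites, 8 of 115 in exons, 5 of 82 between genes and 2 of 48 in introns called lower. When all loci were sorted by CpG density into 5 groups of equal size, the densest group, from 2.36 to 13.3 CpGs per 100 bases, held 140 of the 187 lower loci and 7 of the 127 higher loci. The other 4 groups held 27, 36, 38 and 19 of the higher loci from the lowest density upwards and 12, 4, 14 and 17 of the lower ones. With counts scaled by a smooth curve on CpG density in each library, which by construction evens out levels along CpG density, 1 CpG-rich locus was lower and the class median was 0.037. With scaling on GC content the median was -0.22 and 16 loci were lower, and with each library's slope on CpG density as a covariate it was -0.18, with 7 loci lower and 409 of 489 below 0. Whichever single library was left out, the class median was between -0.317 and -0.264, and 13 to 82 loci were called lower.

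**Figure D1:**
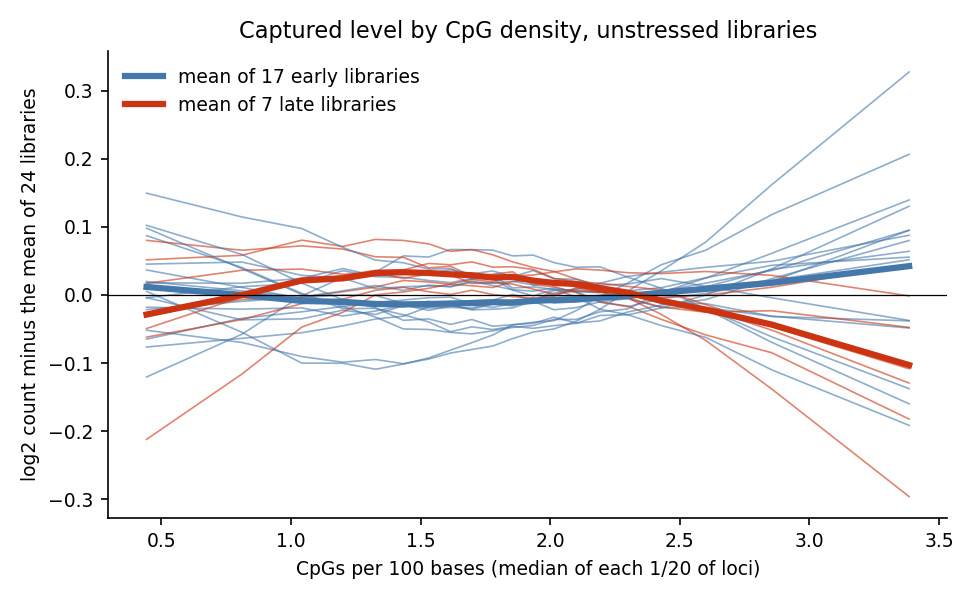
Mean captured level against CpG density in the 24 C libraries. Each thin line is 1 library (blue early, red late), the horizontal axis gives the median number of CpGs per 100 bases in each of 20 equal groups of loci, the vertical axis the log2 count relative to the mean of the 24 libraries, and thick lines are group means. At high CpG density the late mean lies below the early one, at middle densities slightly above it, and single libraries of both groups overlap.

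Several of the CpG-dense loci with small p values were at genes. At Cdkn1c, a maternally expressed imprinted inhibitor of the cell cycle, the locus over the gene and its start (chr7:143458621-143461749, 291 CpGs) ranged from 12.21 (median 17.36) to 27.1 CPM in the early and from 6.898 (median 11.76) to 15.08 CPM in the late libraries. This was 0.625-fold (log2 change -0.68 ± 0.12, edgeR adjusted p = 0.00122), and all 7 late libraries were below the early median, although the ranges overlapped. Scaled on CpG density, the change at Cdkn1c was -0.14 (edgeR adjusted p = 0.683). The change at Cdkn1c was larger in Tph2+/+ (-0.86) and Tph2+/- (-0.81) than in Tph2-/- (-0.46), a difference between genotypes that no test called. At Palld, which encodes the actin-bundling protein palladin, an exonic locus (chr8:61549010-61550563) had an early median of 11.6 CPM (7.751 to 15.4) and a late median of 6.776 CPM (5.017 to 8.661), with a log2 change of -0.69 and an edgeR adjusted p of 0.000539. The locus at Palld also lost its call when scaled on CpG density (edgeR adjusted p = 0.134).

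Several of the lower loci lay at the starts of genes that act in germ cells. A list of 54 germline genes, drawn up after values had been seen, held 298 loci, of which 6 were called lower and 0 higher, where 0.0996% and 0.0677% of all loci were called. With the limits of the study's methods 21 were lower (7.05%) and 5 higher (1.68%), against 1.84% and 1.45% of all loci. Since the list was drawn up from called loci, these counts are a description only. Hsf5 encodes a heat shock factor of the testis, and its locus (chr11:87616575-87618341, 121 CpGs) ranged from 11.54 (median 16.47) to 24.28 CPM in the early and from 8.149 (median 10) to 12.34 CPM in the late libraries, or 0.625-fold (edgeR adjusted p = 0.000145). The late libraries were all below the early median, with a slight overlap of the ranges. The others were Spo11 (log2 change -0.67), which makes the DNA breaks of meiosis, Sycp1 (-0.60), a part of the synaptonemal complex, Mael (-0.51), which acts in the piRNA pathway, Ddx4 (-0.51), the germ cell RNA helicase, and Taf7l (-0.53), a germ cell form of a transcription factor subunit. Scaled on CpG density, the change at Hsf5 was -0.26 (edgeR adjusted p = 0.281). All 6 loci overlapped a start site and held 3.92 to 6.85 CpGs per 100 bases. Over the whole list the median log2 change was -0.034. Spo11, Sycp1, Mael, Ddx4 and Taf7l lost their call with scaling on CpG density or with the CpG slope as a covariate, and Hsf5 with the scaling alone. Over all 35 alternative fits, Hsf5 was called in 34, Spo11 in 33, Sycp1 in 31, Mael in 22, Ddx4 in 16 and Taf7l in 15. Mael, Ddx4 and Taf7l thus lost their calls in many other fits too.

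Tandem arrays were higher in the late libraries. A locus was counted as a tandem array where at least 50% of its 12-base words recurred within it. It also needed a repeat period of at least 10 bases, with at least 50% of its bases matching at that period. This definition was made after the called loci had been read. Of 880 such loci, 31 were called higher (3.52%) and 1 lower. Under the study's limits 164 were higher (18.6%) and 5 lower (0.568%), and 675 of the 880 had a log2 change above 0, with a median of 0.189. The median was positive in each genotype, at 0.185 in Tph2+/+, 0.239 in Tph2+/- and 0.164 in Tph2-/-. The rise depended on the rules for the period and the match. Of all 2062 loci with at least 50% recurring words, whatever the period or match, 31 were called higher (1.5%) and 6 lower (0.291%). Their median was -0.004, and under the study's limits 184 were higher and 244 lower, or 200 and 14 with scaling on CpG density. Since wide and well-covered loci are called more easily, the 289 arrays that were in the top 20% of loci both by width and by counts were set beside the other 29939 loci of that kind. Among the arrays 23 were called higher (7.96%) and 0 lower, and among the other loci 0.117% were higher and 0.354% lower. Since the class was defined after the called loci had been read, these counts are a description only. The scaling on CpG density left 37 arrays higher and 0 lower, and the CpG slope as a covariate left 11 higher and 1 lower, with medians of 0.209 and 0.171. Arrays with units under 30 bases (9 of 375), of 30 to 59 bases (17 of 375) and of 60 bases or more (5 of 130) were all among the called loci, as were arrays between genes (9 of 313), in introns (17 of 460) and at start sites or exons (5, or 4.67%). The count of calls rested in part on 1 library, since without the late Tph2+/- replicate 7 it was 9 higher and 0 lower, but the median log2 change was then 0.156 and 642 of the 880 were still above 0. Leaving out each of the other libraries gave 19 to 55 higher, with medians of 0.185 or more.

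**Figure D2:**
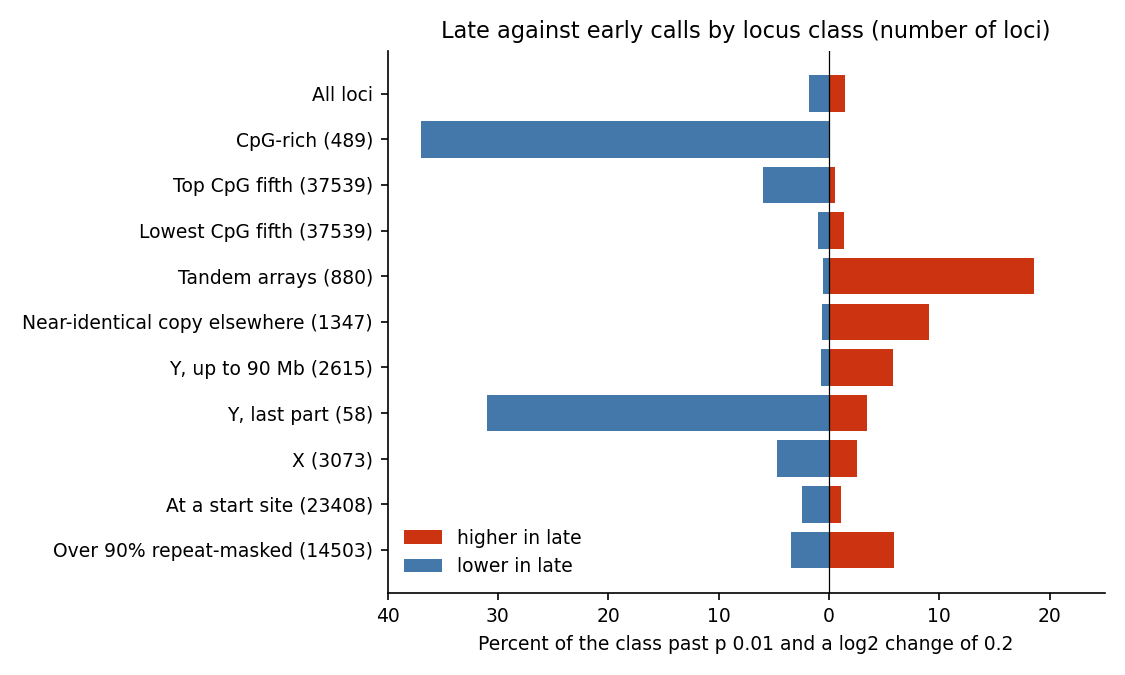
Share of each class of loci past an unadjusted p of 0.01 and a log2 change of 0.2. Bars to the right (red) are loci higher and bars to the left (blue) loci lower in the late libraries, in percent of the class, with the number of loci in brackets. CpG-rich loci reach 37% on the lower side and tandem arrays 18.6% on the higher side, against 1.84% and 1.45% of all loci.

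The higher locus with the smallest p was an array of 19-base units 186 bases from the pseudogene Gm3318 on chromosome 10 (chr10:3110860-3117619). Its level ran from 243.6 (median 414.4) to 543.4 CPM in the early and from 530.7 (median 741.9) to 1066 CPM in the late libraries. It was 1.79-fold higher in the late libraries (log2 change 0.84 ± 0.09, edgeR adjusted p = 2.24e-09), with a similar change in each genotype (0.80, 0.92 and 0.81). The ranges met only at their edges. The neighbouring locus beside Gm30674 (chr10:3109025-3110577), with units of the same length, ran from 45.02 (median 88.5) to 106.8 CPM and from 106.8 (median 149.4) to 202 CPM, so that every late library lay above every early one (log2 change 0.79, edgeR adjusted p = 9.22e-08).

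Most of the other arrays lay in introns of genes. The locus in Map6, which encodes a protein that stabilises microtubules in neurons, held only 8 CpGs (0.2 per 100 bases). It ran from 16.94 (median 22.81) to 27.34 CPM in the early and from 24.16 (median 28.56) to 53.44 CPM in the late libraries, 1.54-fold higher (edgeR adjusted p = 0.000145). In Cdh18, a cadherin of neurons, the array ran from 7.068 (median 9.785) to 17.15 and from 9.519 (median 17.39) to 26.99 CPM, 1.71-fold higher (edgeR adjusted p = 0.00034). Here the groups overlapped more, and 6 of 7 late libraries were above the early median. Arrays in Thada (1.47-fold), Snx9 (1.43-fold) and Stam2 (1.49-fold), the latter genes of endocytic sorting, in Ranbp3l (1.4-fold) and in Golt1b (1.48-fold), a gene of Golgi transport, were higher with repeat units of 56, 24, 54, 69 and 52 bases. In each of these all 7 late libraries were above the early median. In Stam2 the highest late value, 32.06 CPM, came from Tph2+/- replicate 7. Without that library the change at Stam2 was 0.43 on the log2 scale (edgeR adjusted p = 0.0861) and that at Ranbp3l 0.38 (0.0661), while Gm3318 (0.73, 6.03e-07), Map6 (0.47, 0.0337) and Cdh18 (0.66, 0.0128) were still called.

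**Figure D3:**
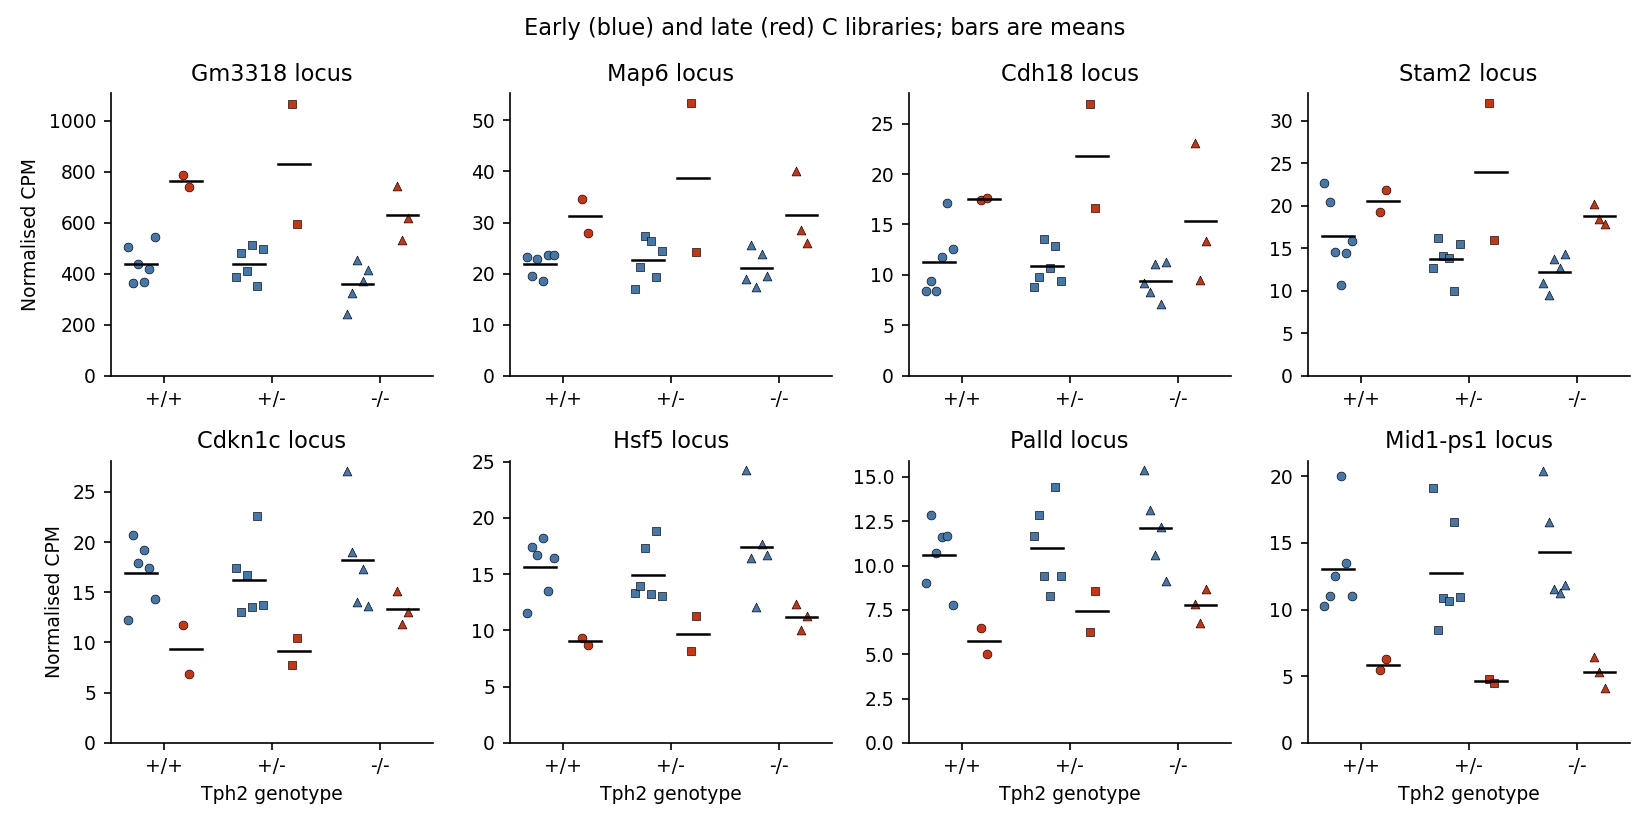
Normalised CPM at 8 loci in each of the 24 C libraries, by Tph2 genotype. Early libraries are blue, late libraries red, and black bars are group means. At the tandem arrays of Gm3318, Map6, Cdh18 and Stam2 the late means are above the early ones in every genotype. At Cdkn1c, Hsf5, Palld and the locus labelled Mid1-ps1, its nearest gene, they are below them.

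Some higher loci were neither CpG-dense nor tandem arrays. Obox4-ps28, a pseudogene of an oocyte homeobox family on chromosome 7, had 10 near-identical copies elsewhere, and its locus ran from 3.436 (median 5.093) to 7.752 CPM in the early and from 6.543 (median 8.331) to 11.95 CPM in the late libraries (1.64-fold, edgeR adjusted p = 0.000629). Reads from such copies cannot be assigned to 1 of them with certainty. A locus between genes near Adgrf5 (chr17:43464529-43465750), a receptor of the adhesion family, was low but separated, from 1.629 to 3.745 CPM in the early and from 4.27 to 6.947 CPM in the late libraries (1.76-fold, edgeR adjusted p = 0.00265). An intronic locus of Nkain3 with 2 CpGs rose 1.49-fold (edgeR adjusted p = 0.001). Of all 1347 loci with a near-identical copy, 11 were called higher (0.817%) and 1 lower.

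Called loci lay mostly alone, but 2 stretches held several. Of the 314 called loci, 34 had another within 100 kb, and 46 of the 48 such pairs went the same way. The longest run was at the end of the Y chromosome (chrY:90722907-90830380), where 7 of 23 loci were called lower. The genes in or nearest to them are the pseudogene Mid1-ps1 (21362 to 29145 bases away), Gm47283 and Gm21742. They lie around the boundary of the pseudoautosomal region, which X and Y share. The locus closest to Mid1-ps1 (chrY:90730571-90731695), 21362 bases from it, had the smallest p of all loci, and part of its sequence is given above. It ran from 8.48 (median 11.56) to 20.36 CPM in the early and from 4.103 (median 5.324) to 6.463 CPM in the late libraries. All late libraries were below all early ones, at 0.392-fold (log2 change -1.35 ± 0.14, edgeR adjusted p = 4.47e-10), and the change was near the same in Tph2+/+ (-1.16), Tph2+/- (-1.46) and Tph2-/- (-1.44). At the wide locus near Gm21742 (chrY:90823783-90830380) the late libraries were at 46.5 to 55.53 CPM and the early ones at 59.27 to 153.9 CPM, again with no overlap (edgeR adjusted p = 0.0282). In a window from 100 kb before the run to the end of the placed sequence, 31 of 33 loci had a negative log2 change. The rest of the Y chromosome went the other way, with 8 of 2615 loci called higher, 1 lower and a median of 0.141. That median was near 0 in Tph2+/+ (-0.01) and positive in Tph2+/- (0.226) and Tph2-/- (0.175).

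The other stretch was the Snord116 cluster on chromosome 7 (chr7:59743256-59892615), an array of duplicated small nucleolar RNA genes inside the paternally expressed host transcript Snhg14. All 34 loci in these 149.4 kb had a positive log2 change, from 0.13 to 0.77, and 9 of them were called higher. Snord116l2 ran from 1.142 (median 2.703) to 4.599 CPM in the early and from 3.647 (median 4.409) to 6.072 CPM in the late libraries (1.7-fold, edgeR adjusted p = 0.0143). At the called locus over Snhg14 (chr7:59770622-59772470) the early range was 8.623 to 16.39 CPM and the late range 13.58 to 21.11 CPM (1.36-fold, edgeR adjusted p = 0.0322). The loci of this stretch were thus shifted together by a small amount, with overlapping ranges at each. Snord116 units are near copies of each other, and their loci are not independent. The calls were fragile, with 0 left when the late Tph2+/+ replicate 8 was left out and 1 without the late Tph2+/- replicate 7, and at least 33 of the 34 loci, called or not, were above 0 whichever library was left out. At the end of the Y chromosome, all 23 loci were below 0 whichever library was left out, with 1 to 8 of them called.

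**Figure D4:**
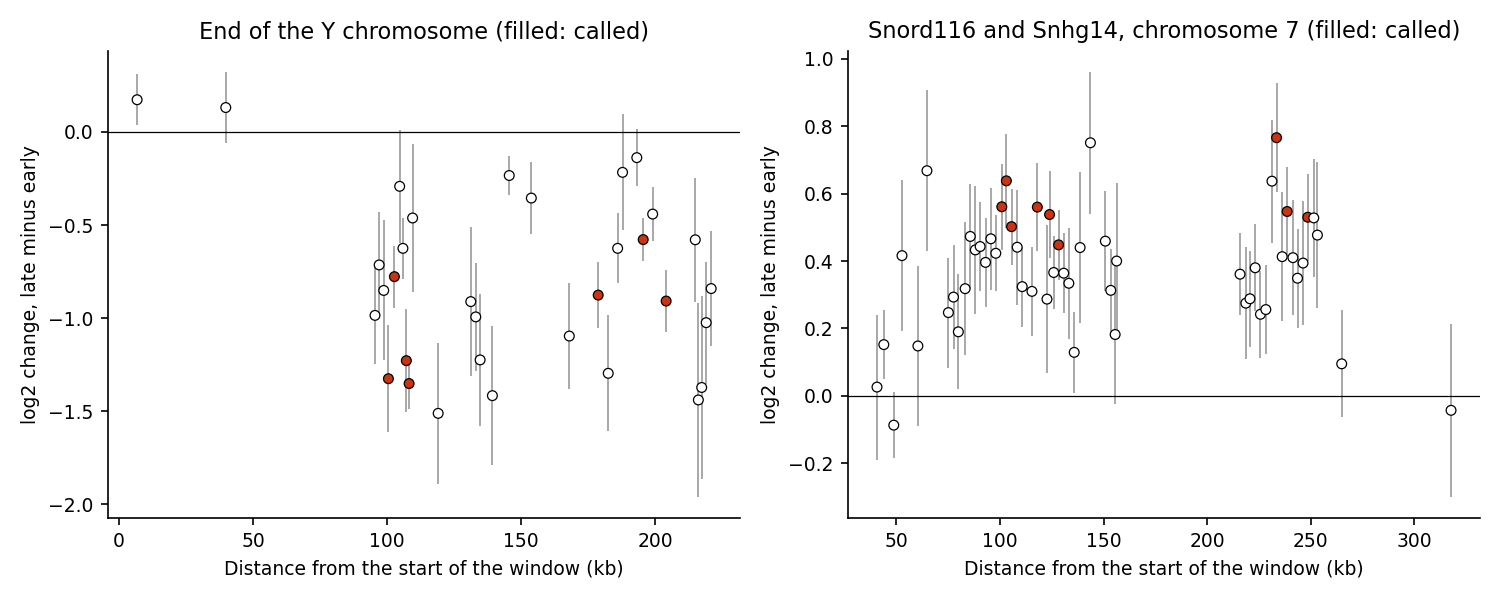
Log2 change (late minus early) with its standard error at every locus of 2 windows, against distance from the start of the window in kb. Red points were called (adjusted p under 0.05) and white points were not. Toward the end of the Y chromosome the points lie below 0, down to -1.51, and across the Snord116 cluster 52 of 54 points lie above 0.

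Most gene lists chosen for the tissue held no call, and with 0.167% of all loci called, lists of this size would hold few at the rate of all loci. No locus was called in the lists of DNA methylation machinery, serotonin genes (120 loci), stress axis (110), immediate early genes (40), neuron (95), astrocyte (92) and microglia markers (85), markers of striatum (281), of thalamus and hypothalamus or of amygdala (247), GABA and glutamate receptors (486), Hox clusters (3), clustered protocadherins (68), olfactory receptors (659) or MHC genes (58). Among oligodendrocyte markers 1 locus was higher, at Enpp6 (log2 change 0.44), an enzyme of newly forming oligodendrocytes. Among vessel markers 1 of 136 was lower, at Cdh5 (-0.62), the cadherin of endothelial junctions, and among markers of cortex and hippocampus 1 of 221 was lower, at Bcl11b (-0.52), a transcription factor of projection neurons. The call at Bcl11b was lost with scaling on CpG density (edgeR adjusted p = 0.596). Vomeronasal receptors had 1 higher, near Vmn1r88 (0.69), and 1 lower of 390 loci. Under the study's limits (1.45% of all loci higher, 1.84% lower), the DNA methylation machinery had 0 higher and 6 lower loci (5.04%), olfactory receptors 7 higher (1.06%) and 25 lower (3.79%), vomeronasal receptors 3 higher (0.769%) and 12 lower (3.08%), and markers of amygdala 0 higher and 5 lower (2.02%). In the marker lists of cell types and regions, 0 to 2.17% of loci were higher and 0.68 to 3.16% lower under these limits.

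Calls in the list of zinc-finger genes were mostly lower, while those in the list of imprinted genes went both ways. The imprinted list did not count the 9 called loci of the Snord116 stretch, which were all higher. Of 344 loci at imprinted genes, 2 were higher, in introns of Trappc9 (0.80) and Ppp1r9a (0.59), and 3 lower, at Cdkn1c (-0.68) and at 2 CpG-dense loci of Gnas (-0.43 and -0.45), which encodes a G protein subunit with parent-specific promoters. Of 1359 loci at zinc-finger (Zfp) genes, 1 was higher and 9 lower, among them Zfp865 (-0.46, 228 CpGs). Zfp865 lost its call with scaling on CpG density (edgeR adjusted p = 0.71). For comparison, 0.0677% of all loci were called higher and 0.0996% lower. At the study's limits, imprinted genes had 3 higher (0.872%) and 19 lower loci (5.52%), and zinc-finger genes 13 higher (0.957%) and 45 lower (3.31%). The median log2 changes of the lists were -0.025 and -0.009.

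No locus was shown to differ in its change between the 3 genotypes, in a design with few late libraries of each. The test of an interaction called 0 loci (edgeR, smallest adjusted p = 0.126, with 8735 loci at an unadjusted p under 0.05), and DESeq2 and limma called 0 as well (8754 and 9437 at an unadjusted p under 0.05). Within single genotypes only 0 to 3 loci were called in a direction. By the study's limits 906 loci were higher and 2704 lower in Tph2+/+, 1621 and 1505 in Tph2+/-, and 1172 and 1365 in Tph2-/-. The slope of the count on CpG density was lower in the late libraries by -0.07713 in Tph2+/+ and -0.02598 in Tph2+/- and differed by -0.0002701 in Tph2-/-, which was not tested between genotypes. When loci were called in the libraries of 2 genotypes and read in the third, which shares no library with the call, most went the same way. Read in Tph2+/+, 23 of 24 higher and 13 of 15 lower loci did so. In Tph2+/- it was 10 of 12 and 13 of 13, and in Tph2-/- 10 of 11 and 34 of 36. This is 92.8% in all, where 48.8 to 50.1% of all loci were above 0 in each genotype. That rate does not hold for the classes rich in calls. Of all 489 CpG-rich loci, 440 were below 0 in Tph2+/+, 401 in Tph2+/- and 410 in Tph2-/-. The sizes shrank on reading, from a median of 0.832 to 0.458 for the loci read in Tph2+/+, for example. Under the study's limits 72.9% went the same way. With scaling on CpG density it was 87.5% at an adjusted p under 0.05 and 68.9% under the study's limits.

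Of 13 measures taken over whole libraries, 1 differed. The CpG-rich loci held 0.518 to 0.983% (median 0.664%) of the counts of an early library and 0.409 to 0.665% (median 0.532%) of a late one. The means were 0.6904 ± 0.1152% (SD, n = 17) and 0.5479 ± 0.08055% (n = 7), with a difference within genotypes of -0.1543 percentage points (2-sided exact permutation test within genotypes, p = 0.003417, adjusted p = 0.04442 over 13 measures). When the labels were permuted over all 24 libraries the adjusted p was 0.08154, and with 1 library left out it was between 0.01752 and 0.1872 (exact permutation), under 0.05 in 9 of the 24 cases. The ranges overlapped, and the highest value belonged to the early Tph2-/- replicate 1. The share of even values among counts above 0 was 62.29 ± 3.623% in early and 58.74 ± 3.149% in late libraries (exact permutation p = 0.02622, adjusted p = 0.1704). Total counts, shares on X and Y, at start sites, near chromosome ends and in the largest loci, and slopes of the count on CpG density, GC content, width, repeat content and abundance had exact permutation p values from 0.07232 to 0.9453.

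The MS libraries, whose numbers fall between the early and the late C libraries, took no part in the calls. The study's methods left a pair of Tph2-/- MS libraries out of its methylation analysis for low counts and a shifted density. The sources used here do not name them, so all were kept. In a model of the 24 MS libraries with genotype and the number, 124 of the 127 loci higher in late C libraries had a positive slope (97.6%), with a median of 0.507 on the log2 scale per 100 numbers. Of the 187 lower loci 179 had a negative slope (95.7%, median -0.763). Over all loci 54.7% of the slopes were positive. Of all 489 CpG-rich loci, called or not, 478 had a negative slope (97.8%), much as the lower loci did. With scaling on CpG density 120 of the higher loci were positive (94.5%) and 143 of the lower loci negative (76.5%). The 7 MS libraries with the lowest numbers (G6_103 to G6_133) differed in their CpG-rich loci, which, with a slight overlap of the ranges, took 0.674 to 1.53% of the counts (median 1.25%) against 0.471 to 0.759% (median 0.568%) in the other MS libraries (from G4_148 on). Without those 7, 114 of the 127 higher loci (89.8%) and 147 of the 187 lower loci (78.6%) kept the sign, and 49.7% of all loci were positive. For the Snord116 stretch all 9 called loci had a positive slope with and without the 7 libraries, and for tandem arrays it was 642 (73%) and 585 (66.5%) of all 880. The 8 lower loci on the Y chromosome did not keep theirs, with 5 negative slopes in all MS libraries and 2 without the 7.

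**Figure D5:**
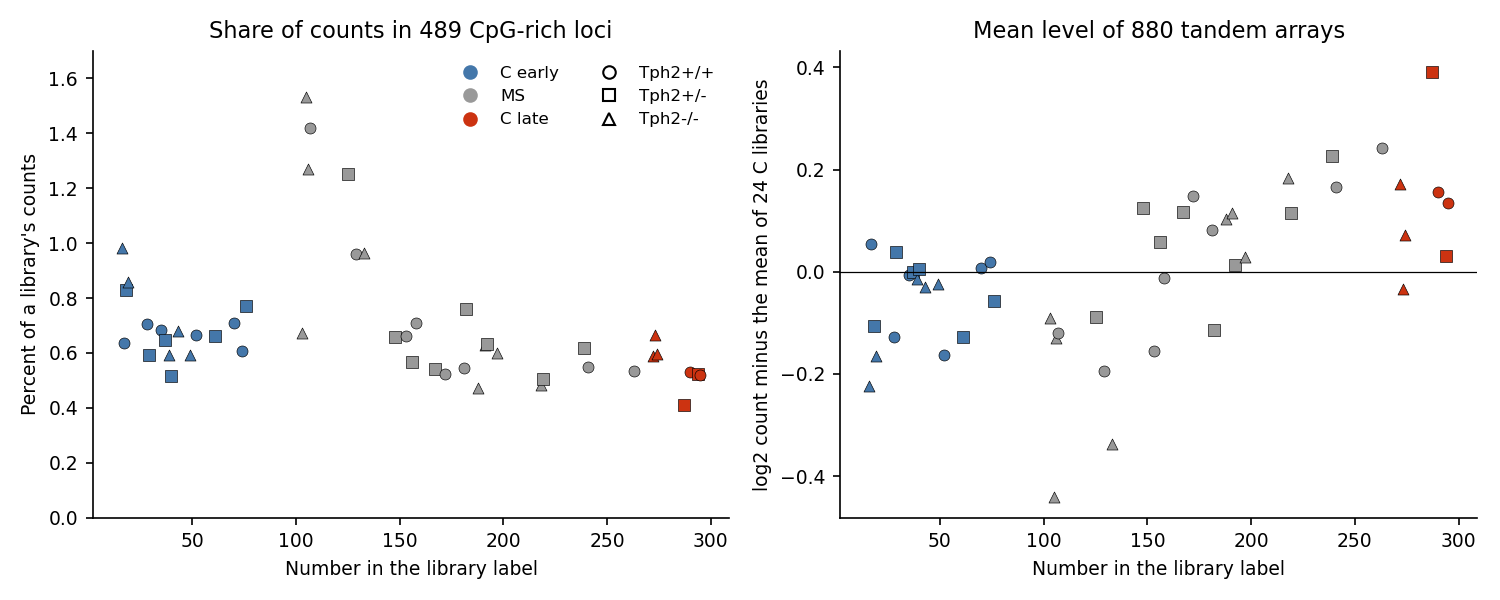
Share of counts in CpG-rich loci (left, percent) and mean level of the 880 tandem arrays (right, log2 count relative to the mean of the C libraries) against the number in the label, for all 48 libraries. Blue points are early C, grey MS and red late C libraries, and shapes give the genotype. Late C libraries are at 0.409 to 0.665% on the left, and the 7 MS libraries with the lowest numbers reach 1.53%. On the right early C libraries lie between -0.223 and 0.054 and late ones between -0.034 and 0.391.

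The level in the MS libraries did not join the 2 ends of the C libraries in a single line. The mean log2 level of the tandem arrays, relative to the C libraries, was -0.223 to 0.054 in early C (median -0.023), -0.44 to -0.089 in the 7 MS libraries with the lowest numbers (median -0.13), -0.155 to 0.243 in the other MS libraries (median 0.115) and -0.034 to 0.391 in late C libraries (median 0.134). The first 7 MS libraries thus had a lower median than the early C libraries that precede them, with overlapping ranges, and the later MS libraries and the late C libraries overlapped widely. MS and number cannot be told apart between C and MS libraries, since no number range holds both.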

How the data were processed

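MBD-seq was done on amygdala DNA, and the authors deposited 1 table of read counts per merged peak and library, which are raw counts on the mm10 (GRCm38) build. The submitters' processing notes name Bowtie2 2.1.0, DiffBind 2.0.9 and DESeq2. Reads were 50-base pairs per the study's methods, and how many mates or duplicates a count holds is not given in the sources used here. Every sample column was mapped by its label.

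The counts of the 24 C libraries were tested in edgeR 4.0.16 (R 4.3.3, limma 3.58.1) with TMM scaling by the quasi-likelihood test (trended dispersions, robust fit), with genotype as a covariate and late minus early as the contrast, over all 187695 loci, with Benjamini-Hochberg adjustment over all of them. CPM are TMM-normalised. DESeq2 1.42.0 and limma were alternatives. Sequence, CpGs, repeat masking and genes came from GRCm38 and its annotation, start sites with 1 kb on each side and gene lists with 5 kb, and copies were found with minimap2 2.31. For measures over whole libraries, the late label was permuted within genotypes in all 43900 regroupings (4 significant digits). Named loci were the 12 with the smallest p in each direction, up to 3 called loci per gene list, those of the longest runs, the locus with the most counts, and Tph2. Other loci named were chosen after their values were seen, and 1 named locus is not reported here.

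In simulated counts on the same loci, 73 of 100 loci with a simulated log2 change of 1 and 17 of 100 with one of 0.5 were recovered, with 5 unchanged loci called. The simulated libraries differed in size alone, with independent loci, no slopes on CpG density and no outlying library. The 5 therefore do not give the number of false calls in the real libraries. Intervals and counts cover these animals only. The members, lists and classes were chosen with earlier results of these data known.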

Additional observations from a re-analysis of the deposited data

Results flagged for a closer look

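In groups of 4 to 10 libraries, 276 sets of values were searched for a library that stood apart from its group by Dixon's ratio of the gap to the range at the 95% level. In all 15 did (5.43%), and chance alone gives about 1 in 20. Of these 15, 6 fell on the late Tph2+/- replicate 7 among all 7 late libraries. It had 26.99% of its counts next to chromosome ends (22.8% in the nearest library), 32.06 CPM at Stam2 (21.86), 31.66 CPM at Enpp6 (19.52) and 21.11 CPM at Snhg14 (16.32). At another called locus with Mid1-ps1 as its nearest gene (chrY:90729747-90730463), not the one with the smallest p, it had 1.603 CPM (0.8989). The same library held 281500 CPM in the satellite-like block over Gm10715, with 211900 CPM in the nearest late library.

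Among early libraries, the share of even values was high in Tph2-/- replicate 2 (67.66%, nearest 62.46%) and in Tph2+/- replicate 5 (71.56%, nearest 63.35%), and the slope on GC content was high in Tph2-/- replicate 1 (0.07179, nearest -0.007342). At single loci, Nkain3 was low in Tph2-/- replicate 1 (7.552 CPM, nearest 13.5). The Y chromosome locus with the smallest p (chrY:90730571-90731695) was high in Tph2+/+ replicate 4 (20.03 CPM, nearest 13.5). Sycp1 was high in Tph2+/- replicate 5 (21.41 CPM, nearest 15.23) and Ppp1r9a in Tph2+/+ replicate 3 (6.905 CPM, nearest 4.994). In Tph2+/+ replicate 1, Llgl2 was low (13.63 CPM, nearest 16.06) and Snord116l7 high (6.941 CPM, nearest 4.379). The reasons were not tested.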

How the results depend on the processing

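The number of loci called between late and early libraries, 314, did not hold. It was 891 with DESeq2 (186 shared), 117 with limma, 183 with no genotype term, 176 with scaling on CpG density, 677 with scaling on abundance and 56 with the library's slope on CpG density as a covariate. It stayed between 253 and 362 with other size factors, total counts, a CPM filter, scaling on GC content or without the largest loci. The share higher in late libraries was 40.5% with DESeq2's size factors, 69.3% with scaling on CpG density, 61% on abundance, 66.1% with the covariate, 56.4% with limma and 29.9% with DESeq2. Leaving out 1 library gave 73 to 802 loci. It was 101, 164, 802 and 547 without the early Tph2-/- replicates 1, 2, 3 and 5, 582, 176 and 194 without the early Tph2+/+ replicates 1, 2 and 4, and 169 and 204 without the early Tph2+/- replicates 1 and 5. It was 152 without the late Tph2-/- replicate 8, 73 without the late Tph2+/- replicate 7, and 92 and 123 without the late Tph2+/+ replicates 7 and 8. Under the study's limits the 6172 loci became 3892 with the covariate and 4884 to 7422 with 1 library left out. Scaling on CpG density left 1 CpG-rich locus, 12 loci of the 20% densest in CpG and 11 loci at start sites called lower. The share of counts in CpG-rich loci differed by -0.1689 to -0.1334 percentage points with 1 library left out, and its adjusted exact permutation p was under 0.05 in 9 of these 24 cases (0.1872 at most, without the late Tph2+/- replicate 7). The CpG slope, late minus early, was -0.03935 to -0.0233, and had an unadjusted exact permutation p under 0.05 without Tph2-/- early replicate 3 (-0.0368), Tph2+/- early replicate 4 (-0.03655) or Tph2-/- late replicate 7 (-0.03935).

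Measures with no difference changed sign. The start-site share, late minus early in percentage points, was -0.0501 with labels permuted over all libraries, -0.2638 without the largest loci and -0.6016 to 0.435 with 1 library left out. The share near chromosome ends was -0.07293 without the largest loci and -0.496 to 0.5387 with 1 library left out, and the share in the largest loci -0.6112 to 0.7134. In each the lowest value was that without the late Tph2+/- replicate 7 and the highest that without the late Tph2-/- replicate 7. The uncalled Gm10715 locus L172092 was at -0.015 with scaling on CpG density and at -0.071 to 0.042 with 1 library left out, and limma called it higher (0.147, adjusted p = 8.99e-12). Of the 55 named loci that were called, 8 were called in all 35 alternative fits. Among them were Gm3318, Gm30674, Map6, Snx9, Obox4-ps28, Gm33251 and the Y chromosome locus closest to Mid1-ps1. The intronic locus of Gm33251 was lower in the late libraries and CpG-dense (3.39 CpGs per 100 bases), with a log2 change of -0.69 to -0.49 over these fits. Not every CpG-dense lower locus thus lost its call with scaling on CpG density. The call was lost at 35 with the CpG slope as a covariate, at 27 with scaling on CpG density, at 24 with limma and at 26 without the late Tph2+/- replicate 7. DESeq2 gave no adjusted p at 11 of the 56 named loci. The causes were not tested. No paired analysis was possible because each library is a separate animal and no litter or pair is given. With about 27.5 counts at the median locus, changes of 0.5 on the log2 scale were mostly below what these libraries can call.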

Other observations

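Several loci outside the rule for named loci separated the groups completely or had large changes, and they were chosen after their values were seen. A locus between genes, nearest to B230118H07Rik on chromosome 2, was at 1.272 to 2.724 CPM in the early and 0.484 to 1.185 CPM in the late libraries, with only 4 CpGs in its 682 bases (log2 change -1.23, edgeR adjusted p = 0.0121). Loci in an intron of Agbl4, a gene of tubulin deglutamylation (0.1817 to 1.459 CPM early, 1.573 to 2.805 CPM late), beside the pseudogene Gm8328 (1.142 to 3.943 and 4.103 to 5.876 CPM) and over exons of Rhno1, a gene of the DNA damage response (3.505 to 6.815 and 7.099 to 8.869 CPM), were higher in every late library.

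Copies of 1 family rose together in 2 more places. On chromosome 7, loci at Obox4-ps22 (log2 change 0.61, edgeR adjusted p = 0.00548) and Obox4-ps18 (0.54, edgeR adjusted p = 0.0358) were called higher besides Obox4-ps28. On the repeated part of the Y chromosome, loci near Gm20814 (1.16), Gm21627 (1.11) and Gm21815 (0.93) were called higher, each with near-identical copies elsewhere and low levels of at most 4.943 CPM. On the X chromosome 5 of 3073 loci were higher and 7 lower, with a median log2 change of -0.06 over all genotypes and -0.182 in Tph2+/+ (0.163% and 0.228%, against 0.0677% and 0.0996% of all loci). With scaling on CpG density the direction turned, to 4 higher, 1 lower and a median of 0.016. Clustered protocadherins, whose 68 loci held 3.59 CpGs per 100 bases at the median, had no call and a median of -0.111, which became 0.061 with scaling on CpG density.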
